A study of Mus musculus with 4 samples.

Results

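The genes described here are 32 genes of protein import, folding and disposal in the endoplasmic reticulum (ER), chosen by symbol from what their products do. Earlier results of these data were known when they were chosen. They were 15 chaperones and folding enzymes, 7 genes of ER-associated degradation (ERAD), 7 genes of translocation into the ER, and 3 genes of ER stress sensing (Atf6, Ern1 and Xbp1). All 32 were among the 52022 annotated genes with a transcript in the deposited tables, and 31 were among the 15643 genes with enough counts to be tested. The exception was Derl3, which is described with its counts.

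Messenger RNA of brown adipose tissue, the fat depot that burns fuel for heat, was sequenced in 4 libraries. The WT group held 2 libraries (WT 1 and WT 2) from wild-type male mice. The KO group held 2 libraries (KO 1 and KO 2) from male mice without the transcription factor ATF4 in thermogenic adipocytes. Mice of both groups were fed ad libitum and had received a diet with 60% fat for 12 weeks. The allele, the Cre driver, the bases removed, the strain and the age at the start were not given in the sources used here, and neither was the number of animals behind a library. The p-values below therefore measure the spread between these 4 libraries, which may be technical. The library names carry a prefix, S1 for WT 2 and KO 1 and S2 for WT 1 and KO 2, and its meaning is unknown here. A prefix thus joined 1 KO and 1 WT library.

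Proteins that are secreted or sit in membranes enter the ER through the SEC61 channel, are folded there by chaperones and disulfide isomerases, and are passed to the ERAD machinery for destruction by the proteasome when folding fails. When unfolded proteins build up, the sensors ATF6 and IRE1 (encoded by Ern1) raise the output of this machinery. ATF6 is cut to a transcription factor, and IRE1 splices Xbp1 mRNA into a form that encodes another one, while a further sensor, PERK, acts through translation of ATF4. In brown adipocytes the same machinery serves the synthesis of lipid-handling and secreted proteins.

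Of the promoter windows of the members, those with an ER stress element are shown first, since this is the sequence to which ATF6 binds together with NF-Y and by which the chaperone class is usually set apart from the others. The element was searched as CCAAT and CCACG separated by any 9 bases, on both strands, in the 250 bases before each gene's start in the RefSeq promoter table (GRCm38.p6). No window was available for Hyou1, Manf, Derl1, Sec61a1, Ssr2, Sec11c and Atf6, so the classes were not searched in full. A window was found for the other 25 of the 32 members. It held the element in 9 of them, 7 chaperone genes and 2 ERAD genes, against 35 of all 27025 genes with a window (0.13%). Capitals mark the CCAAT and CCACG letters, or CGTGG and ATTGG where the element lies on the opposite strand, with 5 bases on either side, and each line is written 5′ to 3′ on the strand of its gene.
Hspa5: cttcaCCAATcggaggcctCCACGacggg
Hsp90b1, nearer element: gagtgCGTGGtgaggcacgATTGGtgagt
Hsp90b1, farther element: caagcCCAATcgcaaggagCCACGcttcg
Calr: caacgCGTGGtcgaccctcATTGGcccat
Canx: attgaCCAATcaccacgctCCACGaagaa
Creld2: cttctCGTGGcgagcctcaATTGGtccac
Dnajc3: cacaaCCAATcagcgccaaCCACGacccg
Pdia6: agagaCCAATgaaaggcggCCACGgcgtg
Syvn1: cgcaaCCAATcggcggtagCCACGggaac
Derl3: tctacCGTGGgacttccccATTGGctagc

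The Hspa5 stretch lies at chr2:34772020-34772048 on the plus strand, and the last base of its element is 47 bases before the RefSeq start. GENCODE, used for the counts and for the gene coordinates below, begins Hspa5 farther upstream, so this stretch lies inside the GENCODE gene, while the other stretches printed lie outside theirs. The Syvn1 stretch at chr19:6046527-6046555 (plus strand) comes closest to its start, at 26 bases, and the farther Hsp90b1 stretch at chr10:86705633-86705661 (minus strand) is the most distant, at 194 bases. The nearer Hsp90b1 stretch lies at chr10:86705528-86705556 (minus strand), Calr's at chr8:84847070-84847098 (minus strand) and Canx's at chr11:50325795-50325823 (minus strand). On the plus strand lie the stretches of Creld2 at chr15:88819515-88819543, Dnajc3 at chr14:118937822-118937850, Pdia6 at chr12:17266486-17266514 and Derl3 at chr10:75893237-75893265. These matches describe letters in a window and are not measured binding sites.

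A second form of the element, searched as ATTGG and CCACG separated by any 1 base, was found in 1 member, Herpud1, and in 10 of all genes with a window (0.037%). The Herpud1 window also held the only match among the members to the letters TGATGNAA, the core of the site bound by C/EBP-ATF4 pairs. These letters occurred in 1056 of all genes with a window (3.91%). The letters TGACGTGG, an element read by XBP1 and ATF6, were in no member's window and in 163 of all genes (0.603%), which says only that those letters are not in these windows. In the Herpud1 lines, capitals mark the searched letters, and the second line holds them on the opposite strand. They lie at chr8:94386372-94386392 and chr8:94386312-94386329 on the plus strand, 42 and 105 bases before the start.
Herpud1, ER stress element II: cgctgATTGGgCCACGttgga
Herpud1, C/EBP-ATF letters: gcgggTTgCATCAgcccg

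The libraries held 25985367 to 34813870 estimated counts. Levels per library are given as CPM, a gene's counts scaled to a total of 1000000 after TMM correction of the library sizes. Where 4 values follow each other without labels, they are those of WT 1, WT 2, KO 1 and KO 2. Atf4 itself, the deleted gene, stood at 29.2 CPM (WT 1), 107 (WT 2), 25.0 (KO 1) and 24.5 (KO 2). Both KO values were below both WT values, but the library labelled WT 1 lay close to the KO libraries, so that Atf4 sets WT 2 apart more than it sets the groups apart. Its log2 fold change was -1.46 (SE 0.57, edgeR adjusted p = 0.9998). Ucp1, the uncoupling protein that defines brown adipocytes, was high in every library (5563 to 7024 CPM). Markers of other cell types differed between libraries, and those of skeletal muscle between the groups. The summed level of 8 skeletal muscle markers was 1.22 to 1.53 CPM in WT and 1975 to 2263 CPM in KO. All 8 passed the test, though this list was chosen with earlier results of these data known. Muscle RNA thus went with genotype in these libraries, and its part in the values of the members was not tested. The summed level of 8 macrophage markers was 395 CPM (WT 1), 267 (WT 2), 104 (KO 1) and 323 (KO 2), and that of 6 fibroblast markers 638, 972, 389 and 592 in the same order, so KO 1 was lowest for both. Plasma cells are rich in ER, and 5 of their 8 markers were under 1 CPM in every library. Their sum was 23.1 to 53.7 CPM, most of it from Ighm (16.4 to 45.8 CPM). None of these lists had a marker at 0 in all libraries. In bulk tissue, fewer cells of a type and less RNA per cell cannot be told apart.

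No member passed the test between genotypes, so with 2 libraries a group no difference could be told apart from the spread between libraries. In edgeR's quasi-likelihood test with genotype as the sole term, 0 of 31 tested members passed an adjusted p of 0.05, against 122 of 15643 genes (0.78%, of which 0.767% were higher and 0.0128% lower in KO). Not 1 of the 31 had an unadjusted p under 0.05 either, against 4.02% of all genes. With the prefix as a block, the counts were again 0 and 0, against 2.05% and 8.88% of all genes. They were also 0 and 0 with DESeq2 (1.39% and 3.45% of all genes) and with limma-voom (0.818% and 4.06%). The median log2 fold change of the members was -0.025, beside 0.002 for all genes, with 11 members above 0 and 20 below. Single values ran from -0.25 (Edem1) to 0.41 (Sdf2l1). Their SE had a median of 0.20 (0.16 to 0.42), and the 95% intervals of single members reached as far as -0.86 and 1.46. Differences of the size of these SEs, and larger ones, were thus not detectable in most members with 2 libraries a group. In simulated counts with the depth of these libraries, the same fit recovered 6% of 1.5-fold changes. It recovered 38% of 2-fold and 100% of 4-fold changes there, all placed in genes of higher level.

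**Figure D1:**
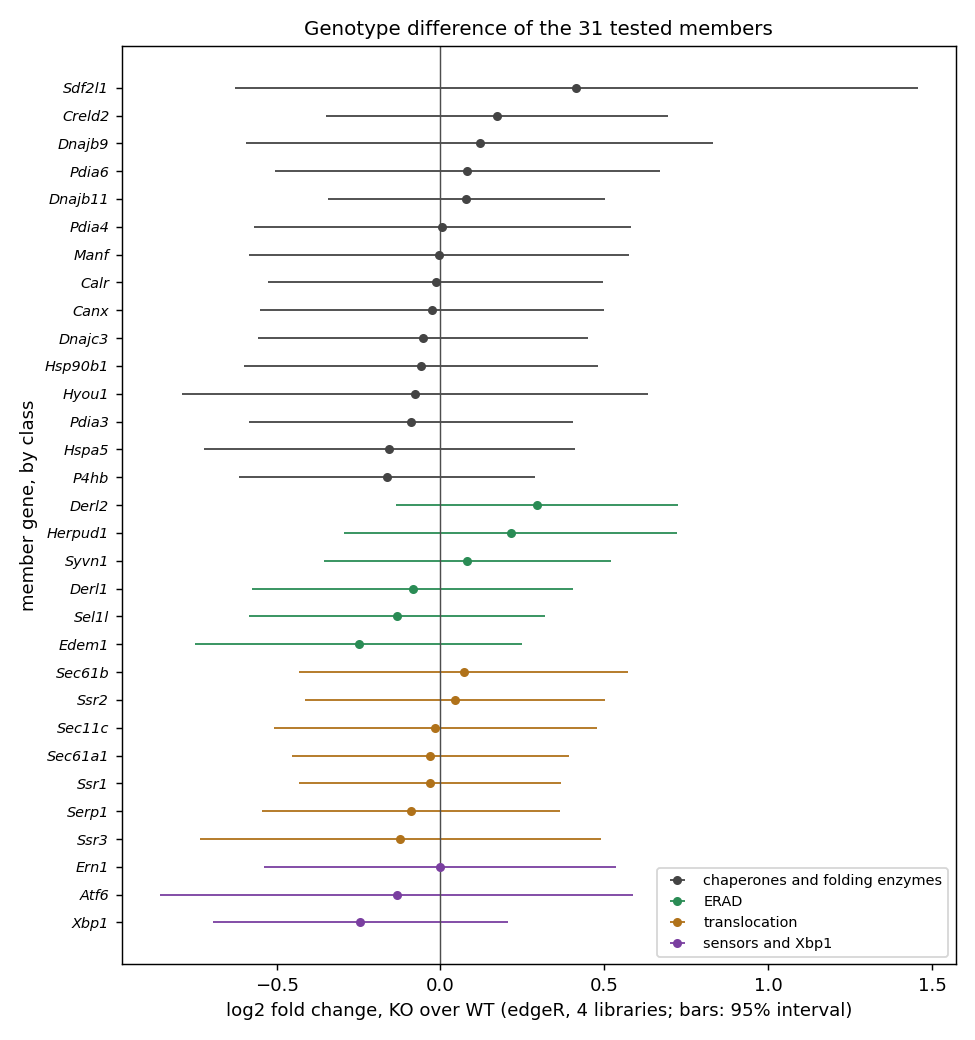
Log2 fold change of KO over WT for the 31 tested members, ordered by class and value, with 95% intervals from the edgeR fit of all 4 libraries. Every interval includes 0, and the point estimates run from -0.25 (Edem1) to 0.41 (Sdf2l1).

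The members spanned a wide range of levels. TPM, transcript abundance corrected for length and scaled to a fixed total, is used here to rank genes, as the mean of the 4 libraries. The highest members were the lectin chaperone Calr (136 TPM) and Hspa5 (98.7 TPM), followed by Hsp90b1 (65.2 TPM). Sec61b (51.8 TPM), Ssr2 (48.2 TPM) and Derl1 (47.3 TPM) stood beside the chaperone Canx (47.5 TPM). The lowest of the tested members were Sdf2l1 (3.05 TPM) and Ern1 (1.71 TPM). Summed over the class, the chaperones held 549 TPM (WT 1), 655 (WT 2), 447 (KO 1) and 636 (KO 2). The KO 1 sum was the lowest, and the KO 2 sum lay between the WT sums. The ERAD sum was 135, 145, 116 and 151 TPM, the translocation sum 208, 233, 194 and 211 TPM, and the sum of the sensor genes 34.4, 40.4, 27.7 and 31.7 TPM in the same order. KO 1 was thus lowest in every class, and the KO and WT ranges overlapped in all classes except that of the sensors. On the CPM scale the sensor sums overlapped too, with WT libraries at 107 and 111 and KO libraries at 85.7 and 108.

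**Figure D2:**
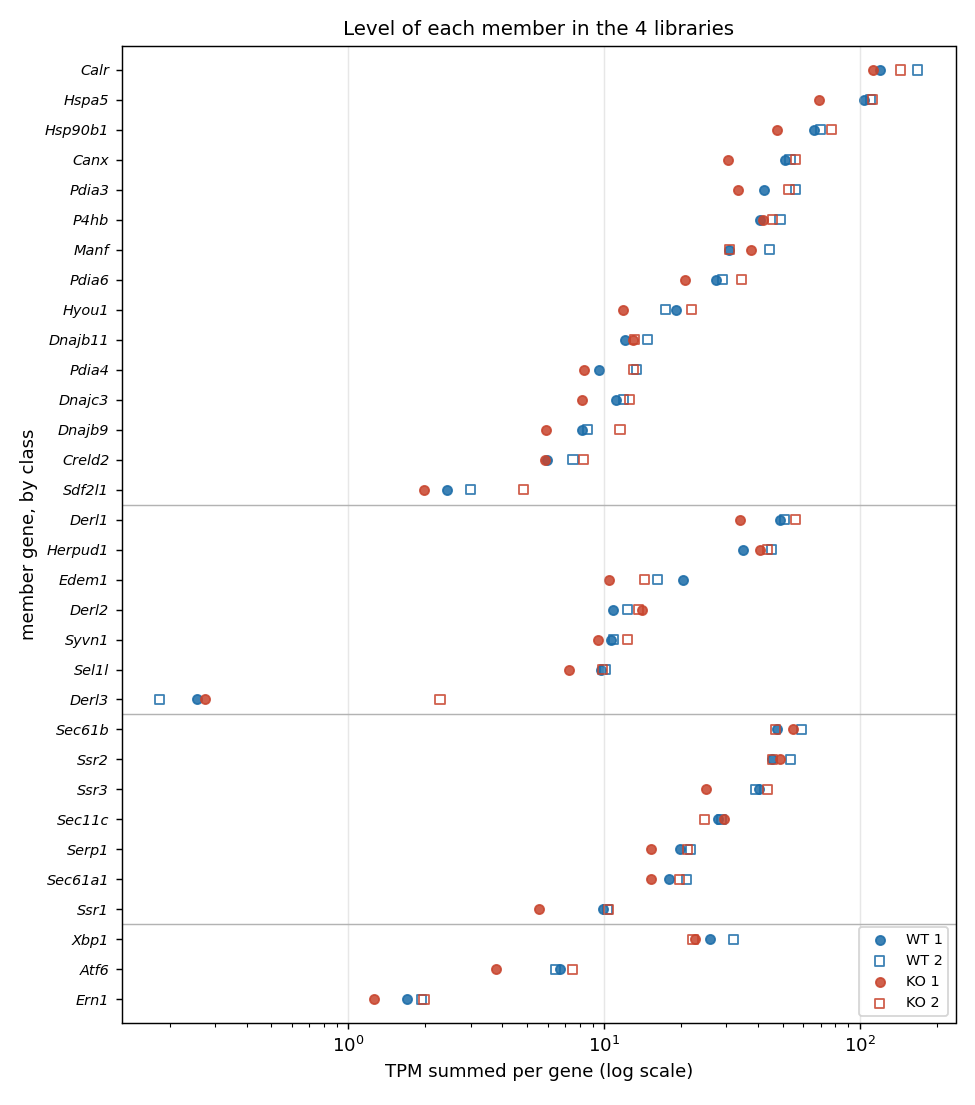
Level of each of the 32 members in each library as TPM on a log axis, grouped by class (filled circles: libraries 1, open squares: libraries 2, blue: WT, red: KO). The 4 libraries of a gene lie close together beside the spread between genes, apart from Derl3 at the lower end, where KO 2 stands away from the others.

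Among the sensors, Atf6 stood at 49.0 CPM (WT 1), 43.8 (WT 2), 30.6 (KO 1) and 53.9 (KO 2). The KO libraries enclosed both WT values. The log2 fold change was -0.13 (SE 0.29, edgeR adjusted p = 0.9998), made of -0.52 within S1 and 0.14 within S2. Ern1, which encodes IRE1, had the same order, with 10.99, 12.4, 9.85 and 13.5 CPM. Xbp1 (chr11:5520659-5525893, plus strand, GRCm38), the target of IRE1, stood at 46.6 CPM (WT 1), 54.9 (WT 2), 45.3 (KO 1) and 40.4 (KO 2). Both KO values lay below both WT values, an order that 13.1% of all genes had and that 2 members had. The gap was small, with a log2 fold change of -0.24 (SE 0.18, 95% interval -0.69 to 0.20, edgeR adjusted p = 0.9998). A prefix block left it at -0.24 (SE 0.15, edgeR adjusted p = 0.7943). The annotation has 4 Xbp1 transcripts, of which the 3 coding ones hold the letters of the unspliced junction and 0 hold those of the spliced form. The share of Xbp1 mRNA cut by IRE1 was therefore not analysed here. The main coding transcript, Xbp1-201, held 81.5% of the gene's TPM (WT 1), 86.2% (WT 2), 81.9% (KO 1) and 87.7% (KO 2).

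Among the ATP-driven chaperones, Hspa5 (chr2:34771970-34777547, plus strand), which encodes BiP, the HSP70 of the ER lumen and the usual readout of ATF6, stood at 258 CPM (WT 1), 249 (WT 2), 189.8 (KO 1) and 265 (KO 2). KO 1 was the lowest and KO 2 the highest of the libraries. The log2 fold change was -0.16 (SE 0.23, 95% interval -0.72 to 0.41, edgeR adjusted p = 0.9998). Hsp90b1, the HSP90 of the ER, had 174 CPM (WT 1), 175 (WT 2), 141 (KO 1) and 194 (KO 2). Hyou1, an HSP70-like nucleotide exchange factor for BiP, had 82.0, 68.4, 52.9 and 89.8 CPM. All of these had KO 1 at the bottom and KO 2 at the top, with WT libraries between them.

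The J-domain partners of BiP were less alike. Dnajb9, a J protein bound to misfolded clients and a known XBP1 target, had 19.2 CPM (WT 1), 18.8 (WT 2), 14.9 (KO 1) and 26.5 (KO 2), and Dnajc3 had 57.0, 56.8, 46.9 and 62.9 CPM. Both followed the order of Hspa5. Dnajb11 did not, with 21.8, 24.7, 26.1 and 23.1 CPM and differences of 0.078 (S1) and 0.082 (S2) on the log2 CPM scale. Sdf2l1, which works in a complex with Dnajb11, was the lowest chaperone, at 2.29 CPM (WT 1), 2.61 (WT 2), 2.07 (KO 1) and 4.46 (KO 2). Its log2 fold change of 0.41 (SE 0.42, 95% interval -0.63 to 1.46, edgeR adjusted p = 0.9998) had the widest interval of all members and rested on KO 2, since KO 1 was below both WT libraries. Without KO 2 the fold change was -0.25.

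The lectin chaperones hold glycoproteins for folding. Calr (chr8:84841850-84846934, minus strand) had 179.6 CPM (WT 1), 232 (WT 2), 201 (KO 1) and 207 (KO 2), so that the KO values lay between the WT values. Canx, its membrane-bound relative, had 134, 139, 114 and 154 CPM and the order of Hspa5. The disulfide isomerases form and reshuffle disulfide bonds. Pdia6 had 52.3 CPM (WT 1), 52.2 (WT 2), 44.0 (KO 1) and 66.6 (KO 2), and Pdia4 had 21.8, 28.3, 21.2 and 29.0 CPM. Pdia3, the partner of the lectins, had 94.0, 116, 90.6 and 107 CPM. P4hb, the founding isomerase, had 75.7, 86.9, 67.6 and 77.5 CPM, and its log2 fold change was -0.16 (SE 0.18, edgeR adjusted p = 0.9998). In each of these isomerases KO 1 was the lowest library. Creld2, another protein of the ER lumen with isomerase activity, had 7.23, 8.49, 7.89 and 9.84 CPM. Manf, a secreted factor held in the ER by BiP, had 24.9, 32.4, 33.1 and 24.1 CPM, the reverse of the order seen in Hspa5.

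Among the ERAD genes, Derl2, a channel-like protein of the membrane, was the 1 member with both KO libraries above both WT libraries, an order shared by 13.2% of all genes. It stood at 18.6 CPM (WT 1), 19.6 (WT 2), 25.6 (KO 1) and 21.3 (KO 2). The log2 fold change was 0.29 (SE 0.17, 95% interval -0.14 to 0.72, edgeR adjusted p = 0.9998), and its unadjusted p of 0.144 was the lowest of any member in that fit. The prefix block gave 0.29 as well (SE 0.15, edgeR adjusted p = 0.6746). Derl2 shares 231 bases with Mis12 on the opposite strand, which had 218 estimated counts in KO 1 and 320 to 386 in the other libraries. How kallisto split reads between both genes was not tested. Herpud1 (chr8:94386438-94395377, plus strand), which recruits the ubiquitin ligase to its clients, had 47.7 CPM (WT 1), 63.4 (WT 2), 67.5 (KO 1) and 61.5 (KO 2). WT 1 was the lowest and the other libraries lay together. The log2 fold change was 0.21 (SE 0.20, edgeR adjusted p = 0.9998), and it was above 0 in both prefixes (0.089 in S1 and 0.37 in S2). Without WT 1 it was 0.024, and without WT 2 it was 0.43.

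Edem1, a lectin that marks misfolded glycoproteins for removal, was lower in KO than in WT within both prefixes. It stood at 63.6 CPM (WT 1), 57.3 (WT 2), 44.1 (KO 1) and 57.6 (KO 2). The KO 2 value was above WT 2, so the groups overlapped. Its log2 fold change was -0.25 (SE 0.20, 95% interval -0.75 to 0.25, edgeR adjusted p = 0.9998). A prefix block gave -0.26 (SE 0.15, edgeR adjusted p = 0.7708). The ubiquitin ligase Syvn1 had 33.2, 31.7, 31.2 and 37.5 CPM, and its adaptor Sel1l had 58.9, 55.2, 47.0 and 57.1 CPM. Derl1, a close relative of Derl2, had 140 CPM (WT 1), 132 (WT 2), 113 (KO 1) and 144 (KO 2). Both it and Syvn1 followed the order of Hspa5, which Derl2 did not.

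Derl3, the third derlin gene and the one that secretory cells use most, was nearly silent. It had 0.127 CPM (WT 1), 0.163 (WT 2), 0.274 (KO 1) and 1.61 (KO 2), which stand for 4, 6, 7 and 47 counts. KO 2 alone was high, and the filter on low counts removed the gene. In the alternative fit without that filter its log2 fold change was 2.68 (SE 0.65, edgeR adjusted p = 0.002906). Leaving out KO 2 as well, which was added after the counts were seen, gave 0.88 (SE 1.08, edgeR adjusted p = 0.8569), so the call rested on that library. In KO 2, 16.8 of its estimated counts fell on the coding transcript Derl3-202, 13.3 on the processed transcript Derl3-203 and 14.7 on Derl3-207, which retains an intron.

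The translocation genes had the narrowest range of fitted log2 fold changes, from -0.12 (Ssr3) to 0.071 (Sec61b). Sec61a1, the pore of the channel, had 52.0 CPM (WT 1), 55.3 (WT 2), 49.2 (KO 1) and 55.7 (KO 2). Sec61b, a small channel subunit, had 15.3, 17.6, 19.7 and 14.9 CPM. The pore and the small subunit thus had opposite orders in CPM. They were alike once the trend with transcript length, described below, was taken out. KO minus WT was then -0.117 (S1) and 0.071 (S2) for Sec61a1, and -0.124 and 0.074 for Sec61b. The translocon-associated subunits Ssr1, Ssr2 and Ssr3 help chosen signal sequences enter. Ssr1 had 41.8 CPM (WT 1), 43.3 (WT 2), 41.5 (KO 1) and 41.78 (KO 2), and its log2 fold change of -0.032 had the smallest SE of the members (0.16). Its KO values lay below both WT values by a margin far under that SE. Ssr2 had 41.1, 43.7, 48.2 and 39.3 CPM, and Ssr3 had 115, 103, 79.4 and 121 CPM, again with opposite orders in the KO libraries. Sec11c, a catalytic subunit of signal peptidase, had 18.9, 19.4, 21.8 and 16.1 CPM. Serp1, which steadies membrane proteins at the channel, had 90.8, 92.4, 77.6 and 94.4 CPM. Sec61b, Ssr2 and Sec11c were the 3 members of this class with KO 1 highest and KO 2 lowest, and Ssr3, Serp1 and Sec61a1 were the 3 with the reverse.

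The contrast between the ATF6/XBP1 type of chaperones and the ERAD and translocation genes is given first over the 4 libraries. The median log2 fold change was -0.015 for the 15 chaperones, -0.002 for the 6 tested ERAD genes and -0.032 for the 7 translocation genes. It was -0.13 for the 3 sensor genes. The chaperone median was 0.017 above that of the ERAD and translocation genes together, and 0.023 above it with the prefix as a block. The members with an ER stress element had a median of -0.020 (8 tested), beside -0.018 for the 16 with a window and no such element.

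Within the prefixes, where each group has 1 library and no test was possible, the chaperone medians lay on opposite sides of 0. Within S1 (KO 1 minus WT 2) the chaperone median was -0.31 on the log2 CPM scale, and 13 of 15 chaperones were below 0. Within S2 (KO 2 minus WT 1) the chaperone median was 0.18, and 14 of 15 were above 0. Over all tested members 24 of 31 were below 0 within S1, against 50.8% of all genes, and 23 of 31 were above 0 within S2, against 49.7%. Both together held for 20 of 31 members (64.5%), among them 13 of 15 chaperones (86.7%) and 5 of 13 ERAD and translocation genes (38.5%), against 24.3% of all genes. The contrast between the classes therefore was -0.24 within S1 and 0.15 within S2. Of the tested members with an ER stress element, 7 of them chaperones, 8 of 8 were below 0 within S1 and above 0 within S2, as were 8 of the 16 with a window and no element. Their S1 medians were -0.26 and -0.30, and their S2 medians 0.19 and 0.077. In neither prefix do counts of genes stand for replicates, since the genes of a library share that library.

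**Figure D3:**
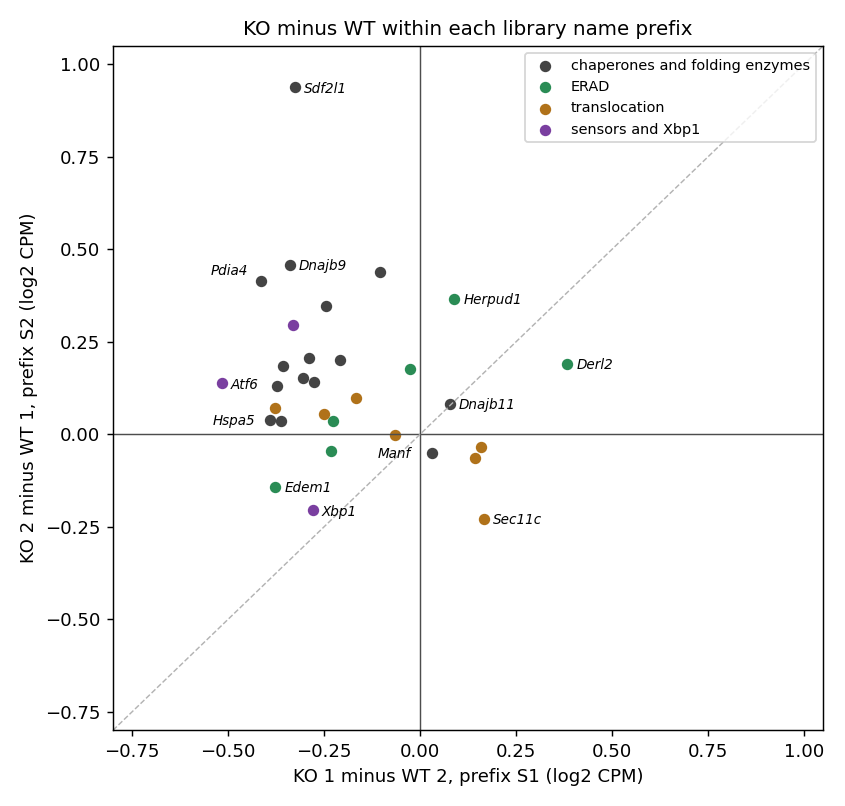
KO minus WT in log2 CPM for each tested member, within prefix S1 on the x axis (KO 1 minus WT 2) and within prefix S2 on the y axis (KO 2 minus WT 1), coloured by class, with the dashed line marking equal values. The chaperones lie mostly in the upper left, lower in KO 1 and higher in KO 2, while Derl2 and Herpud1 are above 0 on both axes and Xbp1 and Edem1 below 0 on both.

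The same pattern appeared as a gap between the KO libraries. KO 1 was the lowest and KO 2 the highest of the 4 libraries for 16 of 31 members, against 14.9% of all genes, and for 9 of 15 chaperones (60%). The opposite order held for 4 members, against 14.5% of all genes. The chaperone median of KO 2 minus KO 1 was 0.44 on the log2 CPM scale, beside 0.18 for WT 2 minus WT 1. Over all genes the median of KO 2 minus KO 1 was -0.008 with signs kept and 0.353 without signs. Without signs the chaperone median was 0.451, so the chaperones differed from all genes more in shared direction than in size. For the translocation genes the median gap between the KO libraries was 0.011 with signs kept and 0.295 without signs, since their gaps went either way. Leaving out KO 1 moved the chaperone median of the genotype fit to 0.15, and leaving out KO 2 moved it to -0.25. The summed macrophage and fibroblast markers, given above, were lowest in KO 1. So was the sum of 5 white adipocyte markers, at 390, 289, 87.3 and 162 CPM. The sum of 10 immediate early genes was lowest there as well, at 794, 356, 143 and 204 CPM. Not every gene of these lists had that order. The white adipocyte markers Retn (6.24 CPM) and Slc7a10 (4.76 CPM) were lowest in KO 2. The same held for the immediate early genes Junb (5.69 CPM) and Ier2 (7.47 CPM), while the remaining genes were lowest in KO 1. With genotype alone in the model, 0 genes of either list were called. With the prefix as a block, 4 of the white adipocyte markers and 8 of the immediate early genes were called lower in KO, against 74 of all 15643 genes. The lists were chosen with earlier results of these data known, so these counts are descriptive and do not test the lists. The sum of 5 endothelial markers was highest in KO 1, at 628, 957, 1239 and 753 CPM. The sum of 8 brown adipocyte markers was highest there too, at 10130 CPM against 8157 to 8855, most of it Ucp1, while Dio2, which activates thyroid hormone, was lowest there (36.9 CPM against 68.8 to 113). Mitochondrially encoded protein genes held 38.4% of gene counts in KO 1 and 32.2 to 33.3% in the other libraries. The part of these measures in the pattern was not tested.

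Transcript length moved with the S1 difference. Over all genes tested, the median of KO 1 minus WT 2 went from 0.24 in the shortest of 10 equal length groups (median 684 bases) to -0.16 in the longest (6286 bases). Within S2 the corresponding medians were -0.088 and -0.028. Across the 31 members, which share the same libraries, Spearman's rho of length with the S1 difference was -0.50 (Pearson's r -0.58), and with the S2 difference it was 0.013. The short members Sec61b, Sec11c, Ssr2 and Manf were those above 0 within S1, together with Dnajb11, Herpud1 and Derl2. Sdf2l1 (1108 bases) and Creld2 (1366 bases) were short too, but below 0 within S1, at -0.326 and -0.105. Once the length trend of all genes was taken out, Sec61b (-0.124), Manf (-0.109) and Sec11c (-0.006) were below 0 within S1. Ssr2, Dnajb11, Herpud1 and Derl2 stayed above 0. With the length trend of all genes taken out, the chaperone median was -0.27 within S1 and 0.17 within S2. The contrast between classes was then -0.17 within S1 and 0.12 within S2.

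**Figure D4:**
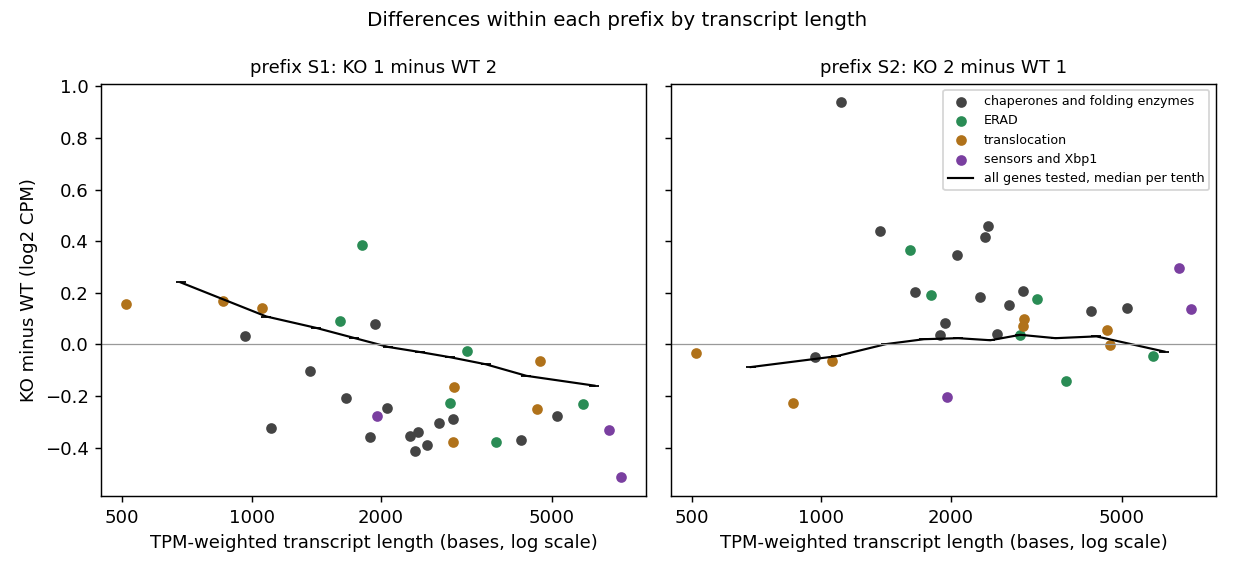
KO minus WT in log2 CPM against TPM-weighted transcript length on a log axis, within prefix S1 (left) and S2 (right), for the tested members by class, with the black line giving the median of all tested genes in each of 10 length groups. The line runs from 0.24 to -0.16 within S1 and stays between -0.088 and 0.037 within S2, and most chaperones lie below it on the left and above it on the right.

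No gene of the wider machinery passed the test either. A list of 85 other genes of import, folding, glycosylation, ERAD and ER stress signalling was tested in the same fit. In either direction, 0 of 85 passed with edgeR, with the prefix as a block, with DESeq2 or with limma-voom. Calls were rare over all genes too, at 0.78%, 2.05%, 1.39% and 0.818% in that order, so 0 calls say little about a list of this size. None had an unadjusted p under 0.05 with any of these tools, against 4.02%, 8.88%, 3.45% and 4.06% of all genes. The median log2 fold change of the wider list was -0.013 (-0.29 to 0.25), with 39 genes above 0 and 46 below. By role, the median was -0.013 for 27 folding genes, -0.016 for 22 ERAD genes, 0.023 for 18 translocation genes, -0.048 for 10 glycosylation genes and -0.009 for 8 genes of stress sensing. Within S1 the median of the wider list was -0.072 and within S2 it was 0.014. Lower in S1 and higher in S2 were 33 of the 85 (38.8%), against 24.3% of all genes. By role, these were 10 of 27 folding genes, 9 of 22 ERAD genes and 6 of 18 translocation genes. The others were 2 of 10 glycosylation genes and 6 of 8 genes of stress sensing.

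The genes of the wider list with the smallest unadjusted p were Txndc11, Edem3, Fkbp14 and Srp68. Txndc11, a thioredoxin-like protein of the ER membrane that works with EDEM proteins, had 21.0 CPM (WT 1), 20.9 (WT 2), 18.4 (KO 1) and 16.8 (KO 2), with both KO values below both WT values (log2 fold change -0.25, SE 0.16, edgeR unadjusted p = 0.162). Edem3, a relative of Edem1, had 21.5, 18.7, 13.1 and 19.7 CPM (log2 fold change -0.29, SE 0.24). The proline isomerase Fkbp14 had 6.44, 6.91, 5.24 and 6.03 CPM, and Srp68, a subunit of the signal recognition particle, had 29.2, 26.3, 29.4 and 34.6 CPM. Edem1 and Edem3 thus had the same order of libraries, with KO 1 lowest and WT 1 highest.

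Some of these values depend on how reads shared between genes were split. A total of 5 members had another annotated transcript at least 95% identical over 200 bases or more. Derl1 and Sec61b have pseudogenes or copies with 0 or 1 count in every library. Hsp90b1 shares sequence with 1810014B01Rik (236 to 269 counts, against a mean of 5289 for Hsp90b1), and Sec61a1 with an antisense gene, Gm44170, which had 38.4 counts (WT 1), 88.1 (WT 2), 118 (KO 1) and 45.1 (KO 2), against a mean of 1637 for Sec61a1.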

How the data were processed

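Total RNA was purified with TRIzol and RNeasy columns and made into stranded TruSeq mRNA libraries, per the labels' protocols. The submitters' processing notes name kallisto 0.45.0 and mm10. Per the file headers, the authors deposited an estimated count and a TPM value for each transcript, with lengths. The transcript set and settings used by the authors are not known here. kallisto splits reads that fit several transcripts, so near-identical and overlapping genes are uncertain.

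Transcripts were assigned to GENCODE vM21 genes (GRCm38) by identifier. Of 141450 transcripts, 138191 (97.7%) matched, and the rest (0.992 to 1.045% of counts) were left out. A gene's estimated counts were added up and rounded. Genes kept by filterByExpr (minimum count 10, total 15) were tested in R 4.3.3 by edgeR 4.0.16 (quasi-likelihood, TMM) with genotype alone in the model and Benjamini-Hochberg adjustment over 15643 genes, at 0.05. An adjusted p called edgeR's comes from that fit, unless the sentence names a prefix block, a fit without the filter or a library left out. DESeq2 1.42.0, limma 3.58.1 (voom, and log2 of TPM plus 1) and a prefix block were alternatives. Log2 CPM used a prior count of 2. The SE was derived from the fold change and its F statistic. Intervals cover the spread between libraries only, and with 2 libraries a group they are wide. The code was tested on simulated data. Copies were sought with BLAST 2.17.0 (95% identity, 200 bases).

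All members are named, with the wider-list genes of smallest p (4), the targeted gene, and the members with an ER stress element. The members and gene lists were chosen with earlier results of these data known. Replicate numbers did not pair libraries.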

Additional observations from a re-analysis of the deposited data

Results flagged for a closer look

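The chaperone and folding class had a median difference, KO minus WT in log2 CPM, of -0.306 within prefix S1 and of 0.184 within prefix S2. The sensor genes Atf6, Ern1 and Xbp1 had medians of -0.332 and 0.138, and the ERAD genes of -0.127 and 0.107, in the same order. For ERAD only 2 of 6 genes had opposite signs in the prefixes (33.3%, against 48.0% of all genes), and with the length trend removed its medians were -0.030 and 0.080. These medians stand out because the only KO and WT pair of one prefix moved one way and that of the other prefix the opposite way. The difference between the prefixes was not tested, since each holds 1 library of each genotype. Atf6 and Ern1 made up the sensor pattern, and Xbp1 was lower in KO within both prefixes.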

How the results depend on the processing

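Alternatives covered the scaling, the filter, the block, the tool, the unit, each library left out and, chosen after seeing the data, an offset for transcript length. None of the 31 tested members passed under any of them, and the lowest adjusted p was 0.6746 with all libraries and 0.4372 with a library left out. With no filter 1 member passed, Derl3, which rested on KO 2. No gene of the wider list passed. The count over all genes, 122, was 457 without the filter, 218 with DESeq2 and 78 to 205 with a library left out, lowest without KO 2 and highest without WT 2.

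The deviations of same-numbered libraries from their group means had r = -0.38, which with 2 libraries a group fixes the value for the same prefix at 0.38. The replicate block, which pairs by number, called 164 genes and 0 members, and the crossed pairing, which is the prefix block, called 320 genes and 0 members.

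The log2 fold change kept its sign in 295 of 310 values with all libraries. With limma on TPM it was -0.101 for Pdia4, -0.073 for Pdia6, -0.012 for Dnajb9, -0.026 for Dnajb11, -0.067 for Sec61b and -0.065 for Ssr2, and the translocation median was -0.155, where the median of all genes was -0.073. With the length offset it was 0.007 for Dnajc3, -0.029 for Sec61b, 0.025 for Ssr1, -0.000 for Ssr2 and 0.088 for Ern1. Manf was at 0.001 with a 1 CPM filter and at 0.003 without mitochondrial and top genes in the library size, where Ern1 was at 0.004. Without the filter Ern1 was at 0.002. Left out in turn, the libraries moved the log2 fold change of 24 members across 0. For the chaperone class the ranges were Hspa5 -0.419 to 0.064, Hsp90b1 -0.308 to 0.151, Hyou1 -0.511 to 0.255, Dnajb9 -0.36 to 0.476, Dnajb11 -0.011 to 0.172, Dnajc3 -0.283 to 0.144 and Sdf2l1 -0.248 to 0.858, then Calr -0.188 to 0.182, Canx -0.265 to 0.179, Pdia3 -0.234 to 0.071, Pdia4 -0.242 to 0.213, Pdia6 -0.249 to 0.349 and Manf -0.253 to 0.206. For ERAD they were Derl1 -0.274 to 0.08, Sel1l -0.283 to 0.001 and Syvn1 -0.06 to 0.209, for translocation Sec61a1 -0.126 to 0.055, Sec61b -0.141 to 0.255, Ssr2 -0.11 to 0.183, Ssr3 -0.46 to 0.149, Sec11c -0.249 to 0.183 and Serp1 -0.241 to 0.044, and for the sensors Atf6 -0.601 to 0.216 and Ern1 -0.252 to 0.206. Members that kept their sign ranged widely too, with Herpud1 0.024 to 0.435, Edem1 -0.457 to -0.069, Creld2 0.002 to 0.322, Xbp1 -0.358 to -0.121, Derl2 0.154 to 0.419, P4hb -0.268 to -0.060 and Ssr1 -0.058 to -0.006. The median of the sensors ranged from -0.252 to 0.206 and that of the chaperones from -0.249 to 0.151. The contrast between chaperones and the ERAD and translocation genes ranged from -0.189 to 0.107. The causes were not tested.

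With 2 libraries a group, and the library labelled WT 1 near the KO libraries in Atf4, changes of members smaller than about the interval widths given could not be seen. The share of spliced Xbp1 mRNA and its alternative were not run, because the transcript set holds no spliced form.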

Other observations

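Listed were 24 member transcripts under 1000 bases that held on average at least 5% of their gene's TPM, or belong to Xbp1. Of these, 9 had their lowest TPM in KO 1 and 4 their highest. The same share over all short transcripts was not computed, so these counts describe the listed transcripts only. Canx-202, a processed transcript of 708 bases, had 287 (WT 1), 271 (WT 2), 25.6 (KO 1) and 233 (KO 2) estimated counts. Ssr1-202, a coding transcript of 523 bases, had 41.0, 36.2, 2.40 and 29.0 in the same order of libraries. Pdia3-203, listed as a target of nonsense-mediated decay, had 148, 215, 51.0 and 230, and the corresponding Herpud1-204 had 60.9, 81.1, 0 and 85.2. In these examples KO 1 was the lowest library. Others were highest in KO 1. P4hb-202, a processed transcript of 414 bases, had 65.3, 61.4, 92.0 and 72.8, Sec11c-209 had 14.3, 0, 44.3 and 0.000464, and the retained-intron transcript Herpud1-203 had 79.9, 105, 141 and 88.9. The retained-intron transcript Calr-204 had 1182, 1868, 837 and 1375 estimated counts, with KO 1 lowest. Among full-length forms of Sel1l, Sel1l-201 had 1622, 1434, 628 and 1061, while Sel1l-210 had 86.6, 363, 519 and 383, so the forms of this gene did not share 1 order. These transcripts were picked after their values were seen, and the counts are kallisto's split of shared reads, in libraries of unequal depth, for which no replicate error was computed.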
